A study of Mus musculus with 14 samples.

Results

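The nuclear genes of the mitochondrial respiratory chain and ATP synthase were examined in liver RNA of 14 female mice of the hybrid strain B6C3F1, bought at 5 to 6 weeks of age. Corn oil alone was given by gavage to 4 mice (control). Furan was given the same way at 1 mg/kg body weight to 5 mice and at 8 mg/kg to 5 mice, for 21 days. All 14 mice, controls included, drank bromodeoxyuridine (BrdU), a label of DNA synthesis, for the last 5 days, and livers were taken 4 h after the final dose. Each value is the log2 ratio of liver RNA (Cy5) over a universal mouse reference RNA (Cy3) on an Agilent 2-colour array, 1 array per mouse, so a ratio compares liver with that reference and not the abundance of different transcripts. The rule takes genes by symbol and uses no measured value: those starting with Nduf, Cox4 to Cox8, Uqcr or Atp5, and Sdha to Sdhd, without pseudogenes. The rule found 96 protein-coding genes. Of these, 93 had a probe whose accession matched and 90 were tested, among 21976 features tested in all; Ndufb1, Ndufb4b and Ndufb4c had no matched probe.

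The respiratory chain passes electrons from NADH through complex I, or from succinate through complex II, to coenzyme Q, then through complex III to cytochrome c and through complex IV to oxygen. Complexes I, III and IV pump protons across the inner mitochondrial membrane, and ATP synthase lets them back to make ATP. Most subunits are encoded in the nucleus, a core set is encoded in mitochondrial DNA, and several small complex IV subunits have a general form and a form restricted to heart, skeletal muscle, brown fat, lung or testis. Hepatocytes depend on the chain for gluconeogenesis, ureagenesis and fatty acid oxidation. The tested genes comprised 36 complex I subunits, 8 complex I assembly factors (Ndufaf), 4 complex II, 8 complex III and 17 complex IV subunits, and 17 genes of ATP synthase. Ndufa4 and Ndufa4l2 were counted with complex IV, where the protein is now placed. No probe was matched by accession to any mitochondrially encoded subunit gene, so that set of subunits was not measured here.

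The regions just upstream of 4 genes are shown. Cox6a1, Cox7a1 and Uqcr11 carry differences described further on, and Cox7a2 is shown for contrast. Cox6a1 (general form of complex IV subunit 6A) was higher at 8 mg/kg, Cox7a1 (heart and muscle form of subunit 7A) was lower, and Cox7a2 is the general partner of Cox7a1. Uqcr11, a small complex III subunit, was lower but passed the test only under some scalings of the arrays. Each line gives the 250 bases that end at the annotated start of the gene, 5′ to 3′ on the gene's strand, from RefSeq (GRCm38.p6); Ndufaf6 is not in the table of promoters used. The regions are chr5:115348959-115349208 (minus strand) for Cox6a1, chr7:30183921-30184170 (plus) for Cox7a1, chr9:79759854-79760103 (minus) for Cox7a2 and chr10:80406822-80407071 (minus) for Uqcr11. Capitals mark, on either strand, the core TGCGCA read by nuclear respiratory factor 1 (NRF1) and the letters CCGGAAG read by ETS factors such as GABP, whose matches do not overlap in these windows; both factors are known regulators of respiratory chain genes. TATAAA was searched too and is in none of the 4.
Cox6a1: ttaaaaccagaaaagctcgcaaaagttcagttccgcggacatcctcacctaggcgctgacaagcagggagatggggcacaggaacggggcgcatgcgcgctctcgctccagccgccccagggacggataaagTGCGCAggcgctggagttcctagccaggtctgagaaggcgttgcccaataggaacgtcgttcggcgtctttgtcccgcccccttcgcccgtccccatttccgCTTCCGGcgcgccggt
Cox7a1: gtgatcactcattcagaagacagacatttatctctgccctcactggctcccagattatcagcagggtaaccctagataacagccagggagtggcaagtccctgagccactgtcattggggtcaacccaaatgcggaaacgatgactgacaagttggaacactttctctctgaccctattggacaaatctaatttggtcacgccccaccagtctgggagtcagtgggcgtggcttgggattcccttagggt
Cox7a2: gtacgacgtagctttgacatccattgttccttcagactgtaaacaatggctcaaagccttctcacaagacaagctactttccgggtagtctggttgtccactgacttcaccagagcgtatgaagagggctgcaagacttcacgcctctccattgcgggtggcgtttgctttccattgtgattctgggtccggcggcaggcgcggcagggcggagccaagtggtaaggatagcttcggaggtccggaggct
Uqcr11: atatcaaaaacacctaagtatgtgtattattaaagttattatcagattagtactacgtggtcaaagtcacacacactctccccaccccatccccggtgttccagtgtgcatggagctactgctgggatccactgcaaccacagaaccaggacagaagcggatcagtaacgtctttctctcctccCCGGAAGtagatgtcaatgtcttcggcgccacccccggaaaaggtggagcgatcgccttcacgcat

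The Cox6a1 window held TGCGCA 1 time, ending 112 bases before the start, and 1 ETS motif that ended 9 bases before it. Only these exact letters were searched, so NRF1 sites written in other letters are neither marked nor counted. The stretch gcgcatgcgc in the Cox6a1 window was not part of the search. Uqcr11 held 1 ETS motif, which ended 59 bases before the start, and the Cox7a1 and Cox7a2 windows held none of these letters. CpG dinucleotides numbered 26 in the Cox6a1 window, 14 in that of Cox7a2, 11 in that of Uqcr11 and 4 in that of Cox7a1. Promoters were listed for 78 of the 96 genes. Of these, 15 (19.2%) held TGCGCA, 14 (17.9%) CCGGAAG and 7 (8.97%) TATAAA. Counted by window, the shares in the 83 windows of these genes were 19.3%, 16.9% and 9.64%. Among all 32851 promoter windows in the table the shares were 6.43%, 6.91% and 12.4%. The windows of the chain genes also had more CpG dinucleotides, with a median of 15 against 6; the part of base composition in these shares was not tested. These matches describe sequence only; no binding was measured.

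In control liver most of the 90 genes stood above the reference. The median over genes of the control mean was 1.06 on the log2 scale, against 0.07 over all features tested, and 84 of 90 genes were above 0. Of the 90, 89 exceeded background in the liver channel on all 14 arrays, and Ndufaf8 was on 13. By complex, the median of the control means was 1.70 for complex II, 1.56 for complex III, 1.13 for ATP synthase, 1.02 for complex I, 0.93 for complex IV and 0.57 for the complex I assembly factors. Among the probes used, the largest ratio was that of Sdhb, the iron-sulfur subunit of complex II, at 2.27 ± 0.22 (SD, n = 4). That rank depends on the probe. The other Sdhb probe had 1.94, and an unused Cox7c probe had 2.21 against 1.19 for the one used. The 6 genes below 0 were Cox6a2, Cox4i2, Ndufaf7, Atp5g2, Cox7a1 and Cox7a2l.

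**Figure D1:**
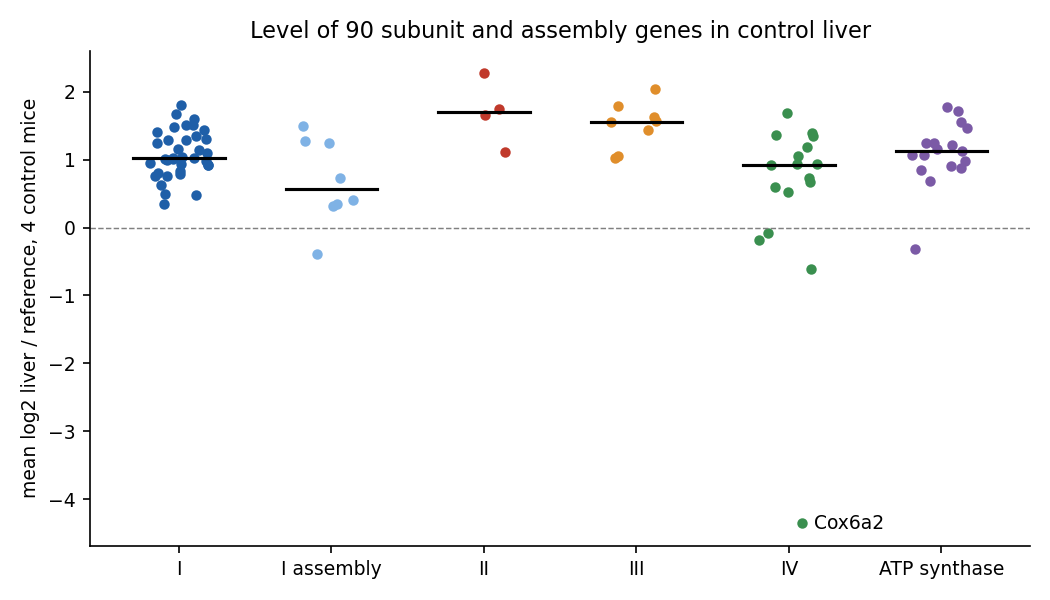
Each point is 1 of the 90 tested genes, placed by complex; the vertical axis is its mean log2 ratio of liver over reference in the 4 control mice, and black bars are medians. Complexes II and III have the highest medians (1.70 and 1.56), and Cox6a2 lies far below all others at -4.35.

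The lowest control ratios were those of Cox6a2 and Cox4i2, which are tissue-restricted forms. Cox6a2, the heart and skeletal muscle form of subunit 6A, had a control ratio of -4.35 ± 0.40 (SD, n = 4), whereas its general partner Cox6a1 had 1.39 ± 0.43. Cox4i2, the form of subunit 4 best known from lung, had -0.61 ± 0.17, and Cox7a1 had -0.19 ± 0.18. Cox7b2 and Cox8c, known from testis, were well above background in liver on 0 of 14 arrays and have no level here. Cox6b2, the testis form of subunit 6B, was well above background on all 14 arrays, with a control ratio of 0.60 ± 0.20. The labelled tissue was checked with hepatocyte markers, and the mean ratio of 11 markers was 6.45 to 7.89 on the control arrays.

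At 8 mg/kg, 3 of the 90 genes passed the test against control: Cox6a1 and the assembly factor Ndufaf6 were higher and Cox7a1 was lower. The background over all 21976 features was 3.96% called (2.63% higher and 1.33% lower), so 3 of 90, or 3.33%, is a share near the background. Unadjusted p-values under 0.05 were also about as frequent among these genes (19 of 90, 21.1%) as among all features (20.2%). The differences were small. The median over the 90 genes was 0.07 and the range was -0.38 to 0.41, with a median SE of 0.09. Each of the 3 genes had 1 probe. The test was limma's moderated test with the slide as a block and Benjamini-Hochberg adjustment over all features.

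**Figure D2:**
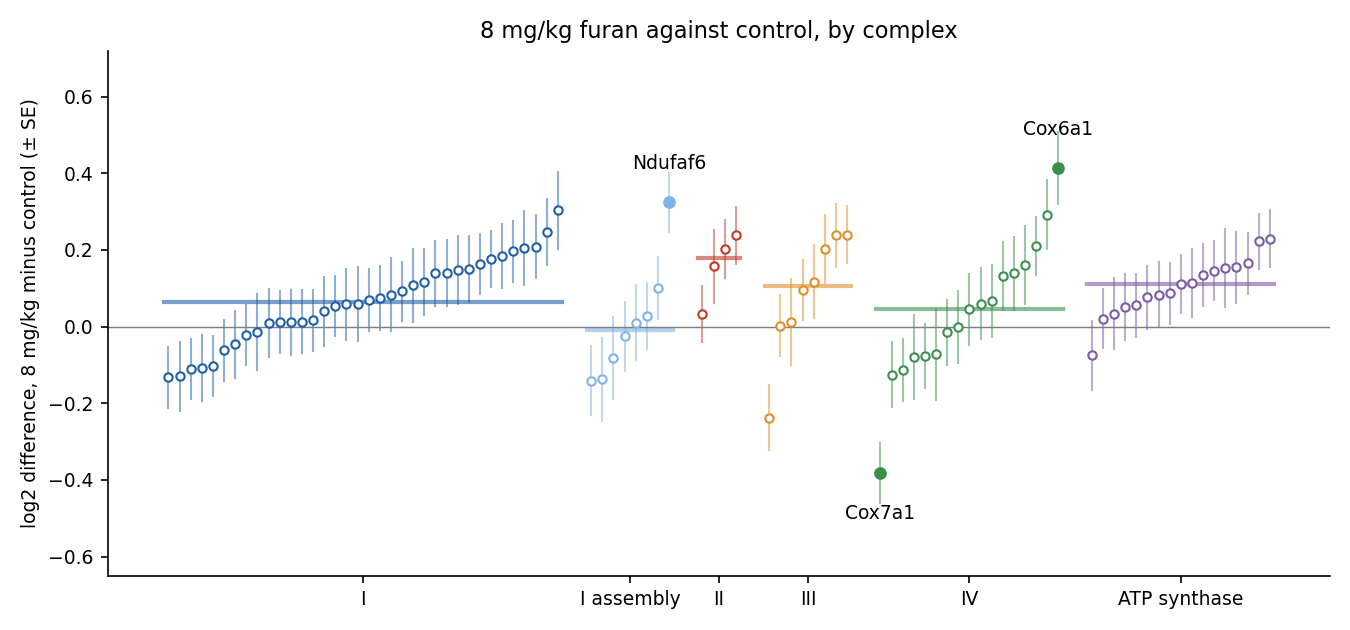
Each point is the log2 difference, 8 mg/kg minus control, of 1 gene with its SE, ordered within its complex; filled points passed an adjusted p of 0.05 and coloured bars are medians by complex. Only Cox6a1 (0.41), Ndufaf6 (0.32) and Cox7a1 (-0.38) are filled.

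Cox7a1 was the most stable of the 3 calls. Its log2 ratios were -0.42, -0.22, 0.0067 and -0.12 in the controls, -0.47, -0.47, -0.23, -0.22 and -0.17 at 1 mg/kg, and -0.66, -0.60, -0.77, -0.42 and -0.60 at 8 mg/kg. Of the 5 mice at 8 mg/kg, 4 lay below every mouse of the other groups; the highest, at -0.42, met the lowest control and overlapped the 1 mg/kg group. The fitted difference from control was -0.38 ± 0.08 (SE, n = 5 against 4; 0.768-fold; adjusted p = 0.0201). It was below 0 within each of the 4 slides that held both groups, by -0.25, -0.37, -0.61 and -0.30. Cox7a1 was also the only one of the 90 genes called between the doses, at -0.30 ± 0.07 for 8 against 1 mg/kg (adjusted p = 0.0350), where the background was 5.2% (2.36% higher and 2.84% lower). Against control, its value lay between -0.46 and -0.31 under 27 other settings and passed in 20 of them. The call was lost without control replicate 2 (adjusted p = 0.0521), control replicate 3 (0.0867) or 8 mg/kg replicate 5 (0.0582), and the call between the doses without any one 1 mg/kg mouse or without any 8 mg/kg mouse but replicate 4 (adjusted p up to 0.0978). Its general partner Cox7a2, also one of the 90 genes and named for the contrast after its value was seen, differed by 0.07 ± 0.10 (adjusted p = 0.755); the difference between the partners was not tested.

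Because Cox7a1 and several of its kin are made in striated muscle and brown fat, markers of those tissues were read beside it. Of 12 muscle and heart markers, 5 (Ckm, Myh1, Myh4, Mb and Ckmt2) were well above background on no array, 5 were tested and 0 were called at 8 mg/kg. The mean ratio of the 5 tested ones was -1.03 to -0.84 on the control arrays and -1.33 to -0.83 at 8 mg/kg. Their median fitted difference at 8 mg/kg was -0.17, with 1 of 5 above 0. Of the 5, Acta1 was well above background in 1 of 4 controls and 3 of 5 mice at 8 mg/kg, and Myh7 in 3 and 2. Of 7 adipose markers only Fabp4 and Cfd were tested and 0 were called. Cfd was well above background in 0 of 4 controls, 3 of 5 mice at 1 mg/kg and 1 of 5 at 8 mg/kg. It passed the filter only through furan-treated mice, so its values are not read as a dose comparison. The mean of Fabp4 and Cfd, the adipose marker mean, is used below only to describe single mice. Fabp4 alone was 2.49 to 3.07 on the control arrays, 2.63 to 4.14 at 1 mg/kg and 2.53 to 3.23 at 8 mg/kg. Of 11 hepatocyte markers, Cps1, the entry enzyme of the urea cycle, was lower at 8 mg/kg (-0.34 ± 0.08, adjusted p = 0.0347) and the other 10 did not pass. No tested marker passed at 8 mg/kg among 9 of Kupffer cells and macrophages, 8 of sinusoidal endothelium, 9 of stellate cells, 6 of cholangiocytes, 7 of lymphocytes and 5 of erythroid cells, and of 4 pancreatic markers Amy2a5, a pancreatic amylase, was lower (-0.73 ± 0.11, adjusted p = 0.00235). In whole tissue, fewer cells of a type and less RNA per cell cannot be told apart, and the part of these markers in the Cox7a1 result was not tested.

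Cox8b, the muscle and brown fat form of subunit 8, was not tested because it was well above background on only 3 arrays: 0 of 4 controls, 2 of 5 at 1 mg/kg and 1 of 5 at 8 mg/kg. Its ratio was -0.18 to 0.19 in the controls and -0.23 to 0.15 at 8 mg/kg. At 1 mg/kg it was -0.03, -0.19, 0.09, 0.33 and 0.95, in replicates 1 to 5. Replicate 5 also had the highest adipose marker mean (4.83), with Cfd, or adipsin, at 5.52. The other adipose markers did not pass the filter. In this mouse the fat hormone Adipoq was 2.97, Cidea 1.07, Plin1 0.93 and Ucp1, the uncoupling protein of brown fat, 0.99. Lep was 0.26 there, within its control range of 0.06 to 0.35. Cox7a1 in that mouse was -0.17, the highest of its group, a difference of -0.05 from the control of its slide. The adipose marker mean was also high in 8 mg/kg replicate 5 (3.13) and 1 mg/kg replicate 1 (2.82), and at most 1.78 in the other 11 mice. In 8 mg/kg replicate 5 and 1 mg/kg replicate 1, Cfd was 3.68 and 2.63. Fabp4 was 2.58 and 3.02 there, within its control range of 2.49 to 3.07. Cox7a1 was -0.60 and -0.47 in these mice, and the latter value was the lowest of the 1 mg/kg group. Whether Cox7a1 followed the adipose markers was not tested. Without 1 mg/kg replicate 5, or without 1 mg/kg replicate 1, 2 of the 90 genes were called at 8 mg/kg, Cox6a1 and Cox7a1. Of all features, 3.35% and 3.41% were called in these fits. Without 8 mg/kg replicate 5, 0 of the 90 were called by limma (17 had an unadjusted p under 0.05), and 1.76% of all features were.

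Cox6a1 had the largest rise. Its ratios were 0.87, 1.40, 1.93 and 1.36 in the controls, 1.46, 1.07, 1.41, 2.10 and 1.86 at 1 mg/kg, and 1.45, 2.24, 1.32, 1.89 and 1.56 at 8 mg/kg. The groups overlapped widely, and the controls alone spanned 0.87 to 1.93. Within the 4 slides the 8 mg/kg mouse was above the control on each, by 0.57, 0.17, 0.32 and 0.53. The fitted rise was 0.41 ± 0.10 (SE; 1.33-fold; adjusted p = 0.0307). At 1 mg/kg the difference from control was 0.30 ± 0.10, above 0 on 4 of 4 slides, and did not pass (adjusted p = 0.709). The size depended on the scaling: it was 0.11 with the scanner's processed signals, 0.12 from the liver channel alone and 0.19 in the authors' deposited ratios, and passed under none of these. When 1 mouse was left out, the call held only without control replicate 2 or without 1 mg/kg replicate 1, 3, 4 or 5.

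Ndufaf6, a factor needed to assemble complex I, was 1.07, 1.09, 1.38 and 1.44 in the controls, 1.43, 1.07, 1.29, 1.55 and 1.59 at 1 mg/kg, and 1.52, 1.71, 1.26, 1.56 and 1.46 at 8 mg/kg. The groups overlapped, and the 8 mg/kg mouse was above the control on each of the 4 slides. The fitted rise was 0.32 ± 0.08 (SE; 1.25-fold; adjusted p = 0.0387). Across 27 other settings the difference stayed between 0.23 and 0.38 but passed in only 9. When 1 mouse was left out, the call held only without 1 mg/kg replicate 3 or 4 or 8 mg/kg replicate 4. The 7 other assembly factors of the rule did not pass, and the median of all 8 was -0.0075. Of 38 tested assembly factors of complexes I to IV and ATP synthase outside the rule, 1 was called, against 3.96% of all features: Nubpl, which delivers iron-sulfur clusters to complex I (0.34 ± 0.09, adjusted p = 0.0495).

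**Figure D3:**
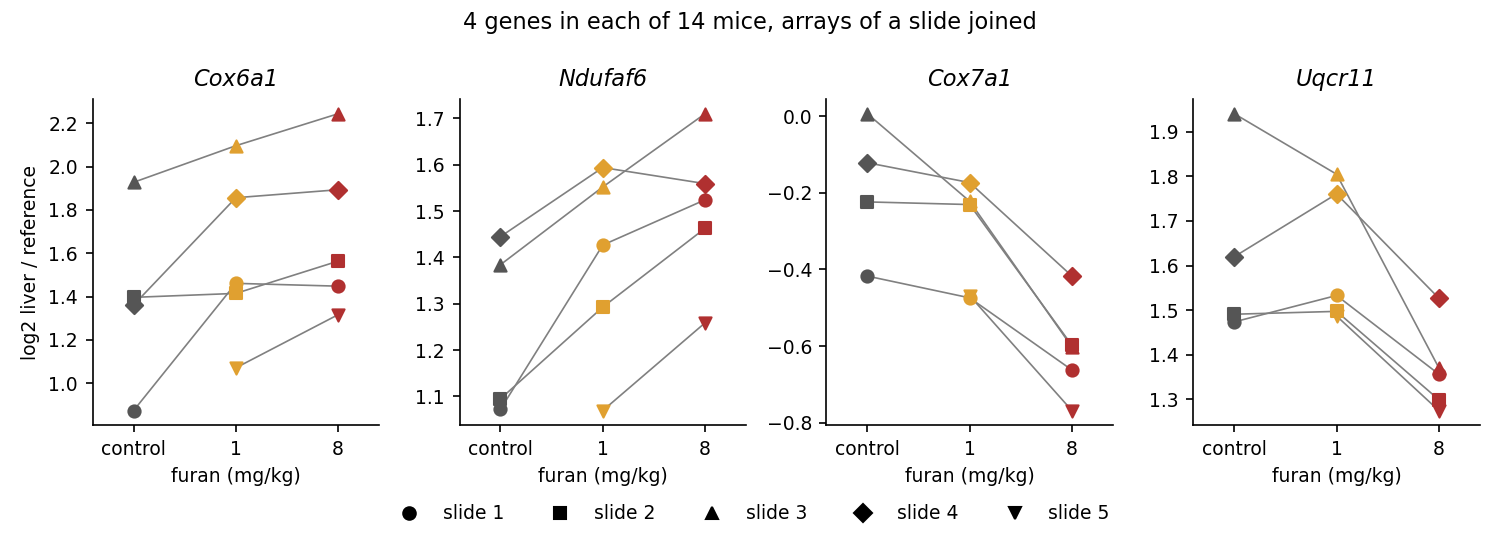
Log2 ratio of liver over reference for Cox6a1, Ndufaf6, Cox7a1 and Uqcr11 in each of the 14 mice, by furan dose; marker shape is the slide and grey lines join arrays of 1 slide. Cox6a1 and Ndufaf6 lie higher at 8 mg/kg than in the control of the same slide on 4 of 4 slides, and Cox7a1 and Uqcr11 lie lower on 4 of 4.

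Just beyond the threshold came Cox6b2, at 0.29 ± 0.09 (adjusted p = 0.0947), against Ndufaf6 as the last gene inside it (0.0387). In complex III, Uqcrc2, a core protein, had 0.24 ± 0.08 (adjusted p = 0.0980) and the Rieske iron-sulfur protein Uqcrfs1 0.24 ± 0.09 (adjusted p = 0.132). Uqcr11 went the other way. Its ratios were 1.47, 1.49, 1.94 and 1.62 in the controls, 1.53, 1.487, 1.497, 1.80 and 1.76 at 1 mg/kg, and 1.36, 1.37, 1.27, 1.53 and 1.30 at 8 mg/kg, a difference of -0.24 ± 0.09 that did not pass (adjusted p = 0.143), although it was below 0 on each of the 4 slides. It did pass with the scanner's processed signals (-0.41, adjusted p = 0.0320), in the liver channel alone (-0.34, adjusted p = 0.0126) and in the authors' deposited ratios (-0.40, adjusted p = 0.0160).

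Complex II, which is also the succinate dehydrogenase of the citric acid cycle, had the largest median of the 6 sets at 8 mg/kg, 0.18 over its 4 genes, and 0 of 4 passed. The membrane anchors had 0.24 ± 0.08 (Sdhd, adjusted p = 0.101) and 0.20 ± 0.08 (Sdhc, adjusted p = 0.160). The iron-sulfur subunit Sdhb had 0.16 ± 0.10 (adjusted p = 0.392) and the flavoprotein Sdha 0.03 ± 0.08 (adjusted p = 0.855). The differences of Sdhd, Sdhc and Sdhb were above 0 on 4 of 4 slides, and that of Sdha on 3. The complex II median fell to 0.05 with the scanner's processed signals, and Sdha turned to -0.04 there and to -0.01 in the authors' deposited ratios. Of 19 citric acid cycle genes tested, 0 were called against control; between the doses Pcx, or pyruvate carboxylase, was lower at 8 mg/kg (-0.36 ± 0.09, adjusted p = 0.0375).

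Of 36 complex I subunits, 0 passed at 8 mg/kg, 27 were above 0 and the median was 0.06. The smallest p was that of Ndufs6, an accessory subunit, at 0.30 ± 0.10 (adjusted p = 0.116). Ndufb4 and Ndufc1, accessory subunits of the membrane arm, had 0.25 ± 0.09 (adjusted p = 0.133) and 0.21 ± 0.08 (adjusted p = 0.181). Ndufs3, a core subunit of the matrix arm, had 0.20 ± 0.08 (adjusted p = 0.199) and Ndufa9 0.18 ± 0.08 (adjusted p = 0.209). Over 7 nuclear-encoded core subunits the median was 0.07, close to the whole complex.

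ATP synthase had 0 of 17 genes called, 16 of 17 above 0 and a median of 0.11. Atp5b, the catalytic beta subunit, had 0.23 ± 0.08 (adjusted p = 0.114). Atp5pb, the b subunit of the stator stalk, had 0.22 ± 0.08 (adjusted p = 0.115). Its ratios were 1.17, 1.12, 1.30 and 1.26 in the controls and 1.36, 1.51, 1.32, 1.49 and 1.35 at 8 mg/kg. It was the only one of the 90 genes whose 8 mg/kg values all lay above all controls, and none lay wholly below. Over all features the shares were 3.44% and 2.11%. This was read from 1 probe per gene, and the other Atp5pb probe differed from control by 0.13 ± 0.08. Atp5g3, one of 3 genes for the c ring subunit, had 0.16 ± 0.08 (adjusted p = 0.280).

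In complex IV, 2 of 17 genes passed, 9 were above 0 and the median was 0.05. Among general forms, Cox6a1, the partner of Cox6a2, passed at 0.41 ± 0.10. Others, also among the 17 and named for the contrast after their values were seen, had 0.06 ± 0.10 (Cox4i1), -0.08 ± 0.09 (Cox6b1), 0.13 ± 0.09 (Cox8a) and 0.05 ± 0.10 (Ndufa4), and none of these passed. Of 5 restricted forms tested, Cox7a1 passed as lower, and Cox6b2 went the other way at 0.29 ± 0.09, above 0 under all 27 other settings, without passing. Cox4i2 had -0.07 ± 0.12, Cox6a2 -0.13 ± 0.09 and Ndufa4l2, a hypoxia-induced form, -0.08 ± 0.11. The sign of each of these last 3 turned under at least 1 other setting, and none of them passed.

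The direction of the chain as a whole depended on how the arrays were scaled. With loess scaling within arrays, 67 of 90 genes (74.4%) were above 0 at 8 mg/kg, against 50.4% of all features. With the scanner's processed signals 32 of 90 were above 0 and the median was -0.04; from the liver channel alone 49 were and the median was 0.02; in the authors' deposited ratios 42 were and the median was -0.0034. The spots of these genes were bright, with a median at the 95.5 percentile of liver-channel signal and 81 of 90 in the brightest 25%; the part of brightness in these shifts was not tested. Only 27 genes were above 0 under all 4 scalings and 20 were below 0 under all 4. Above 0 throughout were 2 of 4 genes of complex II, 4 of 8 of complex III, 12 of 36 of complex I, 3 of 17 of complex IV, 4 of 17 of ATP synthase and 2 of 8 assembly factors. Below 0 throughout were, in the same order, 0, 1, 9, 5, 1 and 4. No rise or fall of the chain as a set is therefore read from these arrays.

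**Figure D4:**
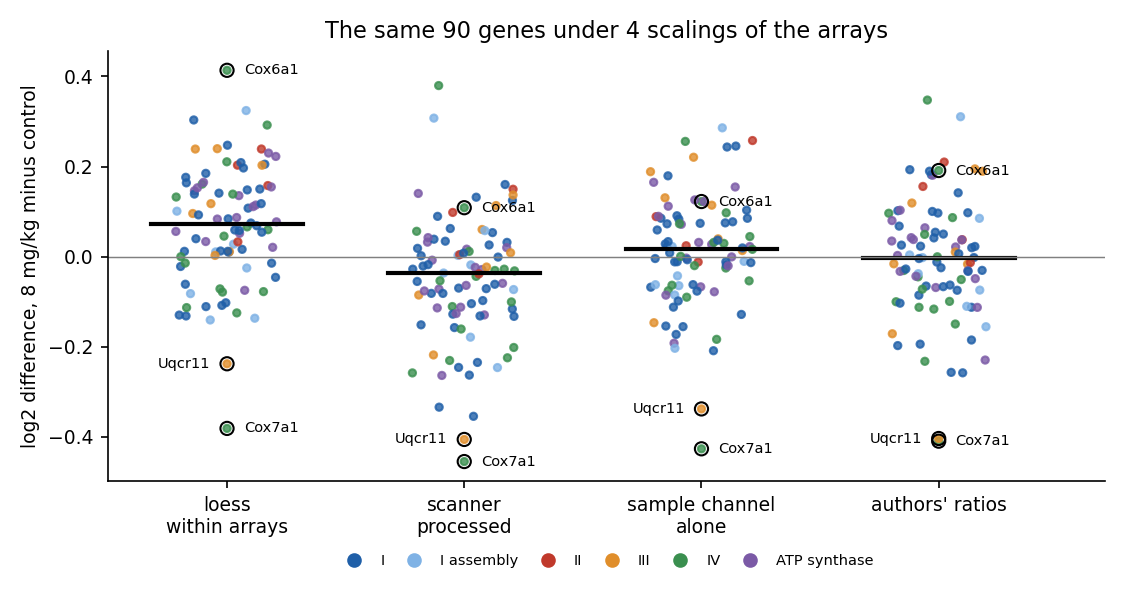
Log2 difference, 8 mg/kg minus control, of the same 90 genes under 4 scalings of the arrays; points are coloured by complex, black bars are medians and circles mark Cox6a1, Cox7a1 and Uqcr11. The median moves from 0.07 to -0.04, Cox7a1 keeps between -0.38 and -0.46, and Cox6a1 drops from 0.41 to 0.11.

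More of the spread among these genes lay between slides than between doses. The first principal component over the 90 genes held 63.9% of their variance, 82 loadings had the same sign, 83.9% of it lay between slides and 1.35% between dose groups. The second held 8.07%, of which 13.6% lay between slides and 76.3% between dose groups. For a single gene the median share of variance between slides was 60.3%, against 42.3% over all features. Between dose groups it was 9.46%, against 14.8%. With 5 slides and 3 dose groups, the slide share is larger by number of classes alone. The median over the 90 genes was 0.88 to 1.30 on the 14 arrays; the highest was control replicate 3 and the lowest the 1 mg/kg mouse of slide 5. Within slides, the median difference of 8 mg/kg from control was 0.16, 0.06, -0.11 and 0.14. On slide 3 only 24 of 90 genes were higher at 8 mg/kg, against 78, 55 and 74 on the other 3 slides. Without the 3 arrays of slide 3 the median was 0.14, and none of the 90 genes was called by limma (26 had an unadjusted p under 0.05). Of all features 1.8% were called then, against 3.96% with all arrays.

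**Figure D5:**
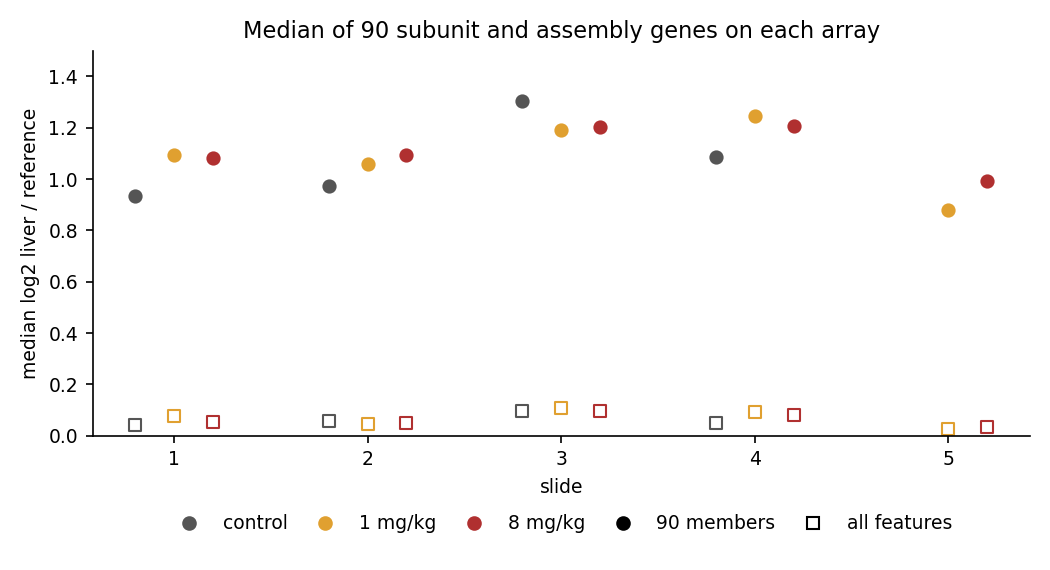
Median log2 ratio of liver over reference on each of the 14 arrays, by slide, for the 90 genes (filled circles) and for all features tested (open squares), coloured by dose group. The 90-gene medians of a slide sit together, and on slide 3 the control array (1.30) is above both furan arrays, in contrast to slides 1, 2 and 4.

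At 1 mg/kg, 0 of the 90 genes passed against control (background 0% of 21976 features by limma), and 7 of 90 (7.78%) had an unadjusted p under 0.05, against 6.88% of all features. The smallest p-values were those of Atp5b (0.28 ± 0.08), Cox6a1 (0.30 ± 0.10) and Ndufaf6 (0.21 ± 0.08), all with an adjusted p of 0.709. The median was 0.09 and 77 of 90 genes were above 0, against 60.6% of all features, but with the scanner's processed signals the median was -0.04 and 27 of 90 were above 0. The medians by complex were 0.14 (II), 0.12 (III), 0.10 (I), 0.09 (ATP synthase), 0.04 (IV) and 0.0078 (assembly factors). Both comparisons against control share the same 4 control mice. Between the doses, 40 of 90 genes were higher at 8 than at 1 mg/kg and the median was -0.02, the same as over all features; after Cox7a1 the smallest p-values were those of Cox6b2 (0.28 ± 0.08, adjusted p = 0.0754) and Uqcr11 (-0.25 ± 0.08, adjusted p = 0.0869).

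Other mitochondrial genes, from lists outside the rule, were read in the same fit at 8 mg/kg, where 2.63% of all features were called higher and 1.33% lower. Among 16 chaperones and proteases, 2 were higher and 0 lower: Hspd1, the HSP60 chaperonin (0.42 ± 0.09, adjusted p = 0.0181), and Clpx, the unfoldase of the ClpXP protease (0.90 ± 0.20, adjusted p = 0.0275). Clpx was also higher at 8 than at 1 mg/kg (0.78 ± 0.19, adjusted p = 0.0287). Among 77 mitochondrial ribosomal proteins, 2 were higher and 0 lower, Mrpl45 (0.35 ± 0.08, adjusted p = 0.0265) and Mrps7 (0.33 ± 0.08, adjusted p = 0.0347), and the median was 0.09. Among 19 electron carriers and coenzyme Q genes, 1 was higher, Pdss2, which makes the isoprenoid tail of coenzyme Q (0.40 ± 0.10, adjusted p = 0.0409). Between the doses Coq10a, a coenzyme Q binding protein, was lower at 8 mg/kg (-0.35 ± 0.10, adjusted p = 0.0481). Of 22 regulators of mitochondrial biogenesis and of 13 antioxidant enzymes and uncoupling proteins, 0 passed in any of the 3 comparisons; the medians at 8 mg/kg were -0.04 and 0.18. Ppargc1a, the coactivator PGC-1alpha, had -0.17 ± 0.21, and Nrf1 and Gabpa, the factors whose motifs are marked above, 0.04 ± 0.08 and -0.03 ± 0.12.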

How the data were processed

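The authors deposited 1 scanner file per mouse with spot intensities read by Feature Extraction 10.7.3.1, per the file headers, and a table of linear ratios of liver over reference with a normalization not given in the sources used here. Median spot intensities were corrected with normexp (offset 50) against the median local background, since the mean named in the design is not in the files used, and log2 ratios were scaled by loess within each array. Control spots had no weight, and flagged spots (178 to 336 per array of 62976) were left out. Accessions were matched to symbols of RefSeq GRCm38.p6. A probe passed if well above background in the liver channel on at least 4 of 14 arrays, and the brightest such probe stood for a gene; 23061 to 29844 probes per array were above background, and precision is limited by the number of arrays. Of the 90 genes, 23 had several probes, and in 8 of these the signs of the 8 mg/kg difference varied, by up to 0.33 between probes (Atp5l); near-identical copies cannot be told apart by a probe.

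All 14 arrays entered 1 fit (lmFit and eBayes, limma 3.58.1, R 4.3.3) with the slide as a fixed block; 4 of 5 slides held all 3 groups. P-values were adjusted by Benjamini-Hochberg over 21976 features, with a threshold of 0.05. Errors of differences are SE. The mice of a group are biological replicates per the labels. The fitting code was tested on simulated data. Named genes were those called in any comparison, those with the smallest p within each complex, all 4 of complex II, the tissue-restricted isoforms, and the called genes of the other lists. The symbol rule uses no measured value, but this set of genes and the lists were chosen with earlier results of these data known. Alternatives changed the block, the groups fitted, the background correction, the scaling, the filter, the rule for several probes and each array in turn. The scanner's processed signals had, per the file headers, local background removed and dyes balanced by the scanner software. Figures used matplotlib.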

Additional observations from a re-analysis of the deposited data

Results flagged for a closer look

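Each of the 3 groups of 4 or 5 mice was looked at for 25 named genes and for the array medians of the 90 genes and of the 6 sets, 96 looks in all, and 2 held a mouse far from the others of its group; chance alone gives about 1 in 20. Sdhc in control replicate 1 was 0.97, and the nearest control was 1.15. Atp5g3 in 8 mg/kg replicate 3 was 1.68, and the nearest mouse of that group was 1.91. Without control replicate 1, 1 of the 90 genes was called at 8 mg/kg (Cox7a1), and without 8 mg/kg replicate 3 again 1 was (Cox7a1). Of all features, 1.49% and 2.44% were called in these fits.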

How the results depend on the processing

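Against the 3 genes called at 8 mg/kg against control (3.96% of all features), 0 were called with no slide in the model (1.26% of all features). The count was also 0 with only the 2 groups compared (1.39%) or without the 3 arrays of slide 3 (1.8%). With the slide as a random block it was 1 (Cox7a1, with 3.68% of all features). Leaving out each replicate in turn gave 0 (without control replicate 3 or 8 mg/kg replicate 5) to 3, with 1.42% to 3.84% of all features. A count of 0 of 90 lies near the lower shares, and the cause was not tested. Between the doses 1 was called (5.2% of all features). The count was 0 with no slide (1.35%), with only the 2 groups (4.76%), without slide 3 (3.69%) and with the scanner's processed signals (1.96%). In the authors' deposited ratios 3 were called, Cox6b2, Cox7a1 and Uqcr11 (4.82% of all features). Leaving out each replicate gave 0 to 1, with 1.9% to 5.65% of all features. The replicate number as a block in place of the slide gave 0 called in both comparisons (0.551% and 0.678% of all features). Its complex II medians were 0.12 (8 mg/kg) and 0.0804 (1 mg/kg). Same-numbered mice of 8 mg/kg and control correlated at 0.18, -0.14, -0.31 and 0.16 in their deviations, so the numbers are not read as pairs.

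The complex II median at 8 mg/kg was 0.0511 with processed signals, 0.0564 in the liver channel alone and 0.0965 in the authors' ratios; at 1 mg/kg it was 0.0234, 0.0763 and 0.0595, and 0.016 with scale normalization between arrays, which also put 8 against 1 mg/kg at 0.177. The complex III median at 1 mg/kg was -0.0385 with processed signals, -0.0334 in the liver channel alone and -0.0057 with scale normalization. Signs turned for Cox6a2 (5e-04 with no slide, 0.0114 processed), Cox4i2 (0.0139 without slide 3, 0.0292 liver channel alone), Ndufa4l2 (0.0715 without slide 3), Sdha (-0.0385 processed, -0.0135 authors' ratios), Atp5g3 (-8e-04) and Sdhb (-0.0121), the last 2 in the liver channel alone. Leaving out each replicate in turn, Cox4i2 ranged from -0.195 to 0.026 and Ndufa4l2 from -0.17 to 0.0585. Of the named calls, Cox7a1 passed in 20 of 27 settings, Cox6a1 in 10 and Ndufaf6 in 9. With processed signals 4 of the 90 passed, and 1.77% of all features did. Among the 4 was Ndufa2 (-0.33, adjusted p = 0.0437), named after its value was seen. All settings called 0 of the 90 genes at 1 mg/kg against control, where at most 0.0137% of all features were called. As 89 of the 90 genes exceeded background on every array, signal over background limits Ndufaf8 and the 3 untested genes (Cox7b2, Cox8b and Cox8c).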
